A study of Homo sapiens with 4 samples.

Results

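The Polycomb repressive complex genes described are EZH1, EZH2, SUZ12, EED, JARID2, BMI1, RNF2, CBX2 and CBX8, 9 of the 15221 genes that had a value. They were chosen by their symbol in the authors' annotation table, which lists 20 transcripts for them. Of these, 17 were among the 31077 transcripts with deposited values. A gene without a value had no transcript among those 31077, which does not show that it was not expressed. Messenger RNA was sequenced from 2 libraries of PANC-1, a pancreatic ductal adenocarcinoma cell line left untransduced, and 2 libraries of PZT-2, a clone of PANC-1 in which short hairpin RNAs, delivered by lentivirus and driven by the U6 promoter, lower every isoform of the histone variant H2A.Z. Both cell lines were grown in DMEM with serum and taken at passage 12 to 13. PZT-2 is 1 clone, selected with puromycin after transduction, compared with a parental line that did not carry a hairpin. The knockdown, the hairpin vector, the drug selection and the clone thus cannot be told apart in the comparison. The study calls the libraries of a line biological replicates, the labels name no separate cultures, and the p-values measure only the spread between these libraries. The libraries held 12861486 to 15717578 estimated counts. The targeted genes were lower in PZT-2: H2AFZ, which encodes H2A.Z.1, had 6389 and 6034 normalized counts in PANC-1 against 2212 and 2258 in PZT-2, and H2AFV, which encodes the H2A.Z.2 isoforms, had 3344 and 3452 against 2590.0 and 2717. The epithelial keratins KRT8, KRT18 and KRT19 had 12385 to 41931 normalized counts over the 4 libraries and were called lower in PZT-2. The epithelial markers KRT7, at 104 to 143 normalized counts, and EPCAM, at 82.1 to 105, were far less abundant and were not called. Of 12 markers of blood, endothelium, fibroblasts, acinar and islet cells, 10 had no value, PECAM1 had 4.03 to 12.4 normalized counts, and COL1A1, a collagen of fibroblasts, had 494 and 531 in PANC-1 and 170.1 and 135 in PZT-2. The part of these markers in the results was not tested.

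Polycomb repressive complexes keep genes silent by marking histones. PRC2 methylates a lysine of the tail of histone H3 through EZH2 or its paralogue EZH1, held together with SUZ12 and EED and guided by accessory proteins such as JARID2. PRC1 attaches ubiquitin to histone H2A through RNF2 or RING1, paired with a PCGF protein such as BMI1, and in its canonical form reads the methyl mark through a CBX protein such as CBX2 or CBX8. In cancers, EZH2 and BMI1 are known for the repression of the locus that encodes cell cycle inhibitors of senescence, and EZH2 is commonly higher in dividing cells while EZH1 is found in resting ones.

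Of the 9 genes, 4 passed the test between the cell lines, BMI1 and EZH2 lower and EZH1 and EED higher in PZT-2. BMI1 was 2.82-fold lower as annotated, and 1.39-fold lower once the reads given to an overlapping readthrough gene were added to it. EZH1 rose 1.77-fold and EED 1.37-fold. EZH2 was 1.27-fold lower, a call that was lost in 8 of 14 alternative analyses. SUZ12, JARID2, RNF2, CBX2 and CBX8 did not pass. Normalized counts correct each library for its TMM effective size, on the scale of an average library, and a gene was called when its edgeR quasi-likelihood p, adjusted over all 15101 genes tested, was under 0.05. This test called 14.7% of all genes higher and 13.7% lower in PZT-2, 28.4% together. Of its calls 51.9% were higher, against 62.1% with limma-trend on log2(TPM + 1) and 62.2% with a pseudocount of 0.1. Among the 6048 genes with a mean count within the range of the 9 (114 to 849), it called 31.9%. Against these, 2 of 9 were higher and 2 of 9 were lower. The libraries of the cell lines did not overlap in 6 of the 9 genes, where 66.3% of all genes did not overlap. The median log2 fold change of the 9 was 0.04, beside 0.00092 over all genes tested, and the median of its size was 0.34, beside 0.28. RNA was taken from whole cultures, so a change in all cells cannot be told apart from one in some of them.

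**Figure D1:**
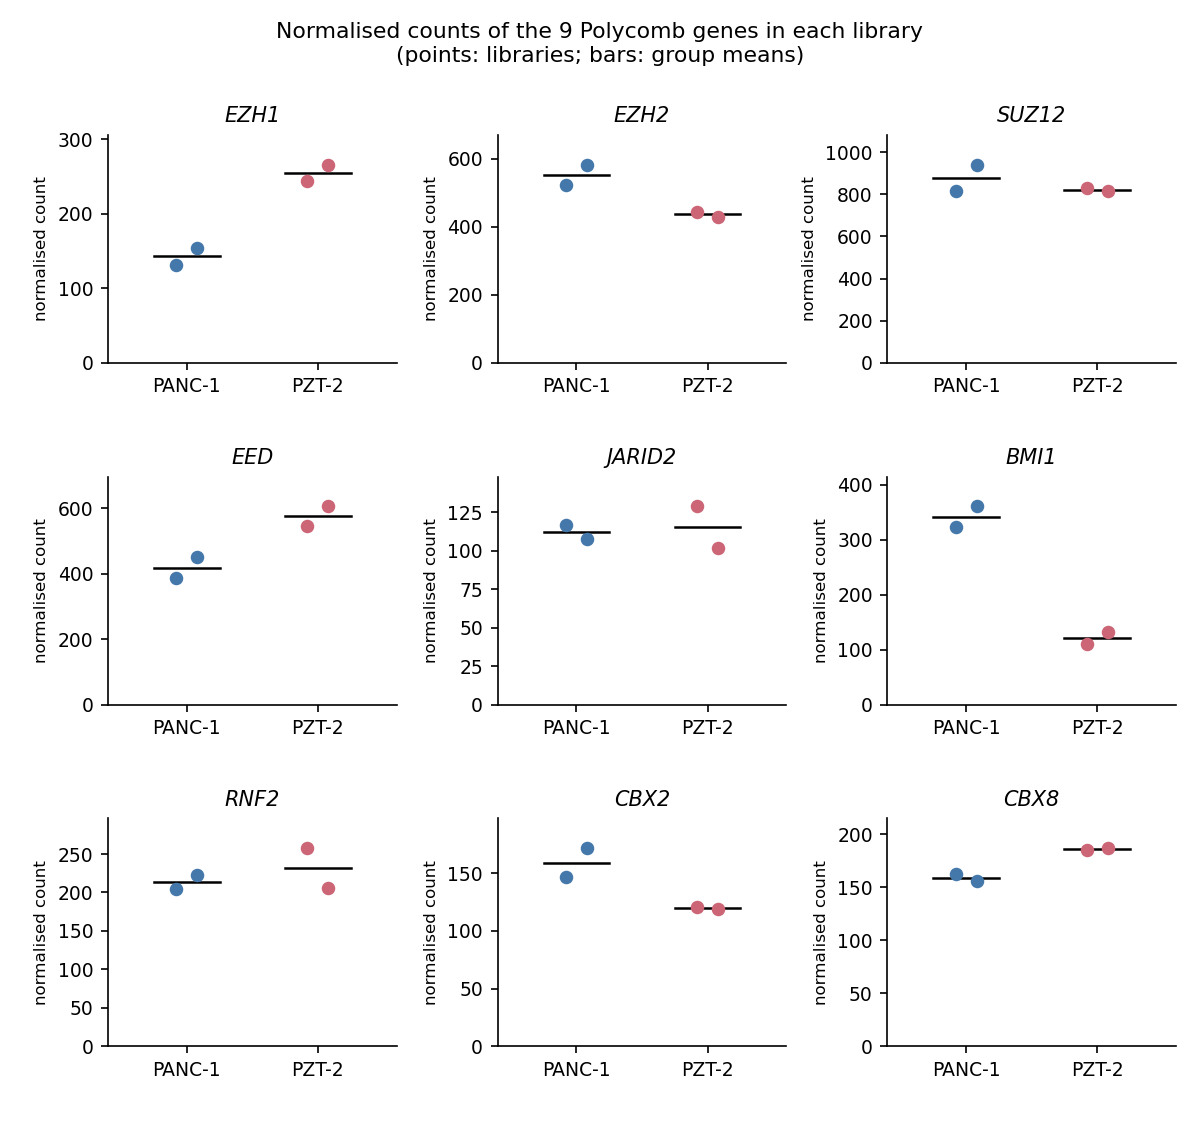
Normalized counts (vertical axes, each from 0) of the 9 genes in the 2 PANC-1 and 2 PZT-2 libraries, with points for libraries and bars for group means. BMI1, at 323 and 361 in PANC-1, stood at 109.7 and 133 in PZT-2, while EZH1 rose from 132 and 155 to 244 and 266.

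Of the catalytic subunits of PRC2, EZH1 was higher and EZH2 lower in PZT-2. EZH1 (chromosome 17, 42700275 to 42745040 of GRCh38.p14, minus strand) had 132 and 155 normalized counts in PANC-1 and 244 and 266 in PZT-2, means of 143 ± 16.2 and 255 ± 15.8 (SD, n = 2). The groups did not overlap, with the knockdown clone above its parent. The log2 fold change was 0.83 with a standard error of 0.13 (edgeR, adjusted p = 0.00551). EZH2 (chromosome 7, 148807383 to 148884291) had 522 and 582 normalized counts in PANC-1 and 444 and 428 in PZT-2, means of 552 ± 42.3 and 436.0 ± 11.1 (SD, n = 2). Its groups did not overlap. The log2 fold change of EZH2 was -0.34 with a standard error of 0.09 (edgeR, adjusted p = 0.0313).

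The EZH2 call was lost in 8 of 14 alternatives. Its adjusted p ranged from 0.0101 to 0.147 over them. It was 0.0972 with the Wald test of DESeq2, 0.0922 with its most abundant transcript alone, 0.0898 when PANC-1 replicate 2 was dropped, and 0.0998 and 0.147 when PZT-2 replicate 1 or PZT-2 replicate 2 was. The EZH1 call held in 13 of 14 alternatives and was lost when only its most abundant transcript was counted (adjusted p = 0.303).

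In TPM, a transcript level that corrects for effective length and for the library total, EZH2 stood at 25.2 and 28.9 in PANC-1 and 22.8 and 21.8 in PZT-2, and EZH1 at 3.61 and 4.32 in PANC-1 and 6.97 and 7.66 in PZT-2. EZH2 was the more abundant of the pair in all 4 libraries. Their TPM ratio, EZH2 over EZH1, was 6.99 and 6.69 in PANC-1 and 3.27 and 2.85 in PZT-2, means of 6.84 ± 0.212 and 3.06 ± 0.297 (SD, n = 2). The ratios of the groups did not overlap, and the exact two-sided permutation test gave p = 0.333, the smallest that 2 against 2 libraries allow. The summed TPM of both genes was 28.8 and 33.2 in PANC-1 and 29.8 and 29.5 in PZT-2, which overlap. EZH1 thus made up 12.8% ± 0.344 of the EZH transcripts in PANC-1 and 24.7% ± 1.81 in PZT-2 (SD, n = 2).

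EED, the subunit that binds the methylated histone tail and stimulates the enzyme, was higher in PZT-2. EED (chromosome 11, 86244753 to 86287615) had 386 and 452 normalized counts in PANC-1 and 546 and 606 in PZT-2, means of 419 ± 46.6 and 576 ± 42.8 (SD, n = 2). The groups did not overlap. The log2 fold change was 0.46 with a standard error of 0.11 (edgeR, adjusted p = 0.0223). The call held in 13 of 15 alternatives, and was lost without PZT-2 replicate 2 (adjusted p = 0.120) and with the most abundant transcript alone (adjusted p = 0.0884).

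SUZ12, the scaffold that EED and the EZH proteins bind, had 814 and 939.9 normalized counts in PANC-1 and 830.4 and 814 in PZT-2, so that the groups overlapped. Its log2 fold change was -0.10 with a standard error of 0.09 (edgeR, adjusted p = 0.463). SUZ12 shares sequence with its pseudogene SUZ12P1, and with the counts of both summed the log2 fold change was -0.04 (adjusted p = 0.769). JARID2, an accessory protein that helps to bring PRC2 to its targets, was the least abundant of the 9 genes in every library, at 2.23 to 2.99 TPM. It had 117 and 108 normalized counts in PANC-1 and 129 and 102 in PZT-2, and its log2 fold change was 0.04 with a standard error of 0.17 (adjusted p = 0.891). For neither gene does the missed threshold show that the cell lines were equal.

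Among the subunits of PRC1, BMI1 as annotated showed the largest difference of the 9 genes, a rank that passes to EZH1 when the readthrough described next is added to BMI1. BMI1, also called PCGF4, pairs with a RING protein and raises its activity. It had 323 and 361 normalized counts in PANC-1 and 109.7 and 133 in PZT-2, means of 342 ± 26.6 and 121 ± 16.1 (SD, n = 2). The lowest PANC-1 library held more than the highest PZT-2 library by a margin larger than the spread of either group. The log2 fold change was -1.50 with a standard error of 0.14 (edgeR, adjusted p = 0.000851), and the gene was called lower in all 16 alternatives, with an adjusted p between 5.74e-09 and 0.0128.

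The size of the BMI1 difference depends on an overlapping gene. COMMD3-BMI1 is a readthrough whose transcripts start at the upstream gene COMMD3, which encodes a COMM domain protein, and continue into the exons of BMI1. In RefSeq (GRCh38.p14) it runs from 22316388 to 22331484 on the plus strand of chromosome 10, and BMI1 from 22321099 to 22331706. Their starts lie 4711 bases apart and their ends close together. kallisto had to divide the reads of the shared exons between them. COMMD3-BMI1 had 173 and 140.1 normalized counts in PANC-1 and 245 and 229 in PZT-2, so that it went the other way from BMI1. Its log2 fold change was 0.60 with a standard error of 0.14 (edgeR, adjusted p = 0.0211). COMMD3 itself had 443 and 396 in PANC-1 and 276 and 347 in PZT-2, with a log2 fold change of -0.43 and a standard error of 0.13 (adjusted p = 0.0547).

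With the counts of BMI1 and COMMD3-BMI1 added together, the libraries held 496 and 501 in PANC-1 and 354 and 362 in PZT-2. The sum was lower in both PZT-2 libraries, with a log2 fold change of -0.48 and a standard error of 0.08 (edgeR, adjusted p = 0.00707). BMI1 took 65.1% and 72.02% of this sum in PANC-1 and 30.97% and 36.6% in PZT-2. With COMMD3 added as well, the log2 fold change was -0.45 (adjusted p = 0.00894). The direction of BMI1 was thus the same in each way of counting, and its size was not.

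How far the shared reads could be assigned was checked on GENCODE 29 transcripts, which are not the index the authors used. Of the 3398 windows of 31 bases in the GENCODE transcript of BMI1, 28.6% also occur in that of COMMD3-BMI1, as 1 continuous stretch from base 486 to base 1486. Of the 1389 windows of COMMD3-BMI1, 69.9% occur in BMI1 and 26.1% in COMMD3, and 55 occur in neither. The GENCODE transcript of COMMD3-BMI1 is 1419 bases long, while the one the authors quantified had a mean effective length of 3231 bases, close to the 3278 of BMI1, so the shared share in their index was not measured here.

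**Figure D2:**
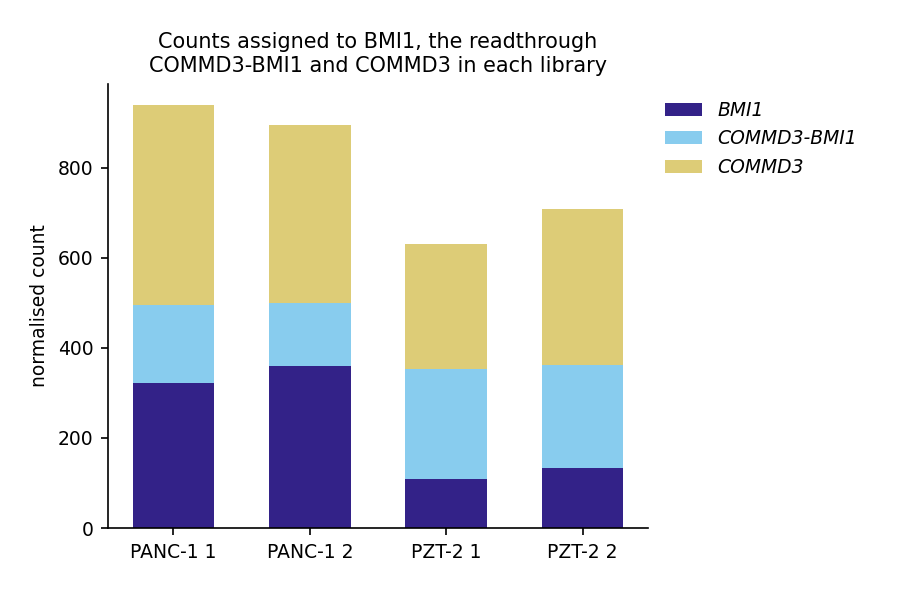
Normalized counts (vertical axis) assigned to BMI1, the readthrough COMMD3-BMI1 and COMMD3 in each library, stacked from the bottom in that order. BMI1 is the smaller of the lower pair in PZT-2 and the larger in PANC-1, while the pair together falls from 496 and 501 to 354 and 362.

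The 250 bases before the starts of these transcripts are shown because the starts set BMI1 apart from its readthrough, together with those of EZH1 and EED, the genes called higher. They are read from RefSeq on GRCh38.p14, 5′ to 3′ on the strand of the gene, with each CG dinucleotide in capitals, since PRC2 is known to gather at CpG-rich promoters.
COMMD3-BMI1 (and COMMD3), chr10:22316138-22316387, plus strand: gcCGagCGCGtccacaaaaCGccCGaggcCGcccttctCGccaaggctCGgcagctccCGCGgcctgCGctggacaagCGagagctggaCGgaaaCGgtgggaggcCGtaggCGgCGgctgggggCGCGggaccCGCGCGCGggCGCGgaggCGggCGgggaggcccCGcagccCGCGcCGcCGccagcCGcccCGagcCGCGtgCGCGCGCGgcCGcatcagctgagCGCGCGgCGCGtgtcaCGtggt
BMI1, chr10:22320849-22321098, plus strand: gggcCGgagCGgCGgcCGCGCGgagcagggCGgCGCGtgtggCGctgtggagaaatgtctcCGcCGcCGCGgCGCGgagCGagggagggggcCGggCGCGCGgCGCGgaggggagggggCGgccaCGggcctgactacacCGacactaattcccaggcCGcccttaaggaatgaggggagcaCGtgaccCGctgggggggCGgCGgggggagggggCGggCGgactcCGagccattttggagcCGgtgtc
EZH1, chr17:42745041-42745290, minus strand: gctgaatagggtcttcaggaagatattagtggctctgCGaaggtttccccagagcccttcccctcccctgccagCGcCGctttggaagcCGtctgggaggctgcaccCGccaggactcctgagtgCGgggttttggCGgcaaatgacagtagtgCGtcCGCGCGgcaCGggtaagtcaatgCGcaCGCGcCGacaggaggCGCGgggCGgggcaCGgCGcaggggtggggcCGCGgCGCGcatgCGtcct
EED, chr11:86244503-86244752, plus strand: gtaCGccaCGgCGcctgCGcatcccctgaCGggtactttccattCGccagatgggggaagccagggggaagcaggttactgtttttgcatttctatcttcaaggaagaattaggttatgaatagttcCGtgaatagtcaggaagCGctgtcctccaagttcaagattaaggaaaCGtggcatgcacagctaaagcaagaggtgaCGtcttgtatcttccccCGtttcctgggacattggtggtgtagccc
The windows of COMMD3-BMI1 and BMI1 hold 47 and 35 CG dinucleotides, those of EZH1 and EED 26 and 11. In 35116 such windows of all genes the median was 11, and 93.9% held at least 1. A second RefSeq start of BMI1, at 22321956, has 54 in its window. Of the 9 genes, 7 were found in this table, with 10 windows, and CBX2 and CBX8 were not. All 10 windows held 11 or more, and 9 of them held more than the median.

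RNF2, the RING protein that carries the ubiquitin ligase activity together with RING1, had 205 and 223 normalized counts in PANC-1 and 258 and 206 in PZT-2. Its groups overlapped, and the log2 fold change was 0.11 with a standard error of 0.14 (edgeR, adjusted p = 0.609). CBX2 and CBX8, chromodomain proteins whose genes are neighbours on chromosome 17, went in opposite directions without either passing the test. CBX2 had 146 and 172 normalized counts in PANC-1 and 121 and 119 in PZT-2. Its log2 fold change was -0.41 with a standard error of 0.14 (adjusted p = 0.0743). Without PANC-1 replicate 1, CBX2 was called lower (log2 fold change -0.52, adjusted p = 0.0391). CBX8 had 162 and 156 in PANC-1 and 185 and 187 in PZT-2. Its log2 fold change was 0.23 with a standard error of 0.12 (adjusted p = 0.199). In both genes the groups did not overlap.

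In TPM the 9 genes ranged from 2.23 to 33.8, between percentile 24.6 and percentile 71.0 of all genes with a value. In PANC-1 the order was EZH2 (27.1 ± 2.61), SUZ12 (25.2 ± 3.08), EED (22.5 ± 2.96), CBX8 (14.1 ± 0.0357), BMI1 (13.01 ± 1.28), RNF2 (7.88 ± 0.642), CBX2 (4.82 ± 0.65), EZH1 (3.97 ± 0.504) and JARID2 (2.51 ± 0.0943), as mean and SD over 2 libraries. The means of EZH2, SUZ12 and EED lay within 1 SD of their neighbours, as did those of CBX8 and BMI1. In PZT-2 the order was EED (32.2 ± 2.3), SUZ12 (24.5 ± 0.453), EZH2 (22.3 ± 0.687), CBX8 (17.2 ± 0.0506), RNF2 (8.85 ± 1.44), EZH1 (7.31 ± 0.485), BMI1 (4.79 ± 0.634), CBX2 (3.78 ± 0.0595) and JARID2 (2.61 ± 0.538), and no neighbours lay within 1 SD of each other. The order was the same in both libraries of a cell line. EED went from rank 3 to rank 1, EZH1 from rank 8 to rank 6, and BMI1 from rank 5 to rank 7.

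The split of a gene's counts among its transcripts varied between libraries of the same cell line. EZH1 NM_001321082 had 64.1 and 0 normalized counts in PANC-1 and 0 and 113 in PZT-2, while NM_001991 had 67.5 and 155 against 243 and 152. The sum of both was steadier than either. JARID2 NM_001267040 had 82.1 and 79.0 in PANC-1 and 86.4 and 7.89 in PZT-2, and NM_004973 had 34.9 and 29.1 against 42.2 and 93.7. Of the 5 EZH2 transcripts, NM_001203247 carried the most counts, 375 and 521 in PANC-1 and 248 and 303 in PZT-2, and NM_152998 had 16.9 and 0 against 54.3 and 56.2. EED rested on NM_003797, which had 370.0 and 427 in PANC-1 and 503 and 592 in PZT-2. Across all transcripts the edgeR test called 45 of 30403, or 0.148%. None of the 17 transcripts of the 9 genes was called (lowest adjusted p = 0.0777, BMI1 NM_005180), and 3 had an unadjusted p under 0.05. DESeq2 called 4400 of 29813 transcripts, or 14.8%, and 2 of the 17, a share near that background: BMI1 NM_005180 (adjusted p = 2.57e-09) and EZH2 NM_001203247 (adjusted p = 0.0386).

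The other genes of the Polycomb system moved in both directions as well. Of 52 listed genes, 49 had a value and were tested, and 10 were called higher and 9 lower in PZT-2, with a median log2 fold change of 0.011. The called genes were 38.8% of those tested, beside 28.4% of all genes tested. No background matched by mean count was computed for this list or those below, so their shares are not read as an excess. The accessory subunits of PRC2 counted 1 higher and 2 lower of 9, or 33.3% called. PHF19, a PCL protein that reads histone methylation, fell from 1959 and 1969 normalized counts to 1231 and 1234 (log2 fold change -0.67, edgeR adjusted p = 0.000704). Its paralogue PHF1 rose from 729 and 761 to 866 and 903 (0.25, adjusted p = 0.0403). In TPM, PHF19 made up 77.9% ± 0.144 of the PCL transcripts in PANC-1 and 63.5% ± 0.338 in PZT-2 (SD, n = 2). The summed TPM of the PCL genes was 211 and 226 in PANC-1 and 158 and 162 in PZT-2, which do not overlap. LCOR, a corepressor locus that also encodes a PRC2 cofactor, was lower (-0.39, adjusted p = 0.0195).

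**Figure D3:**
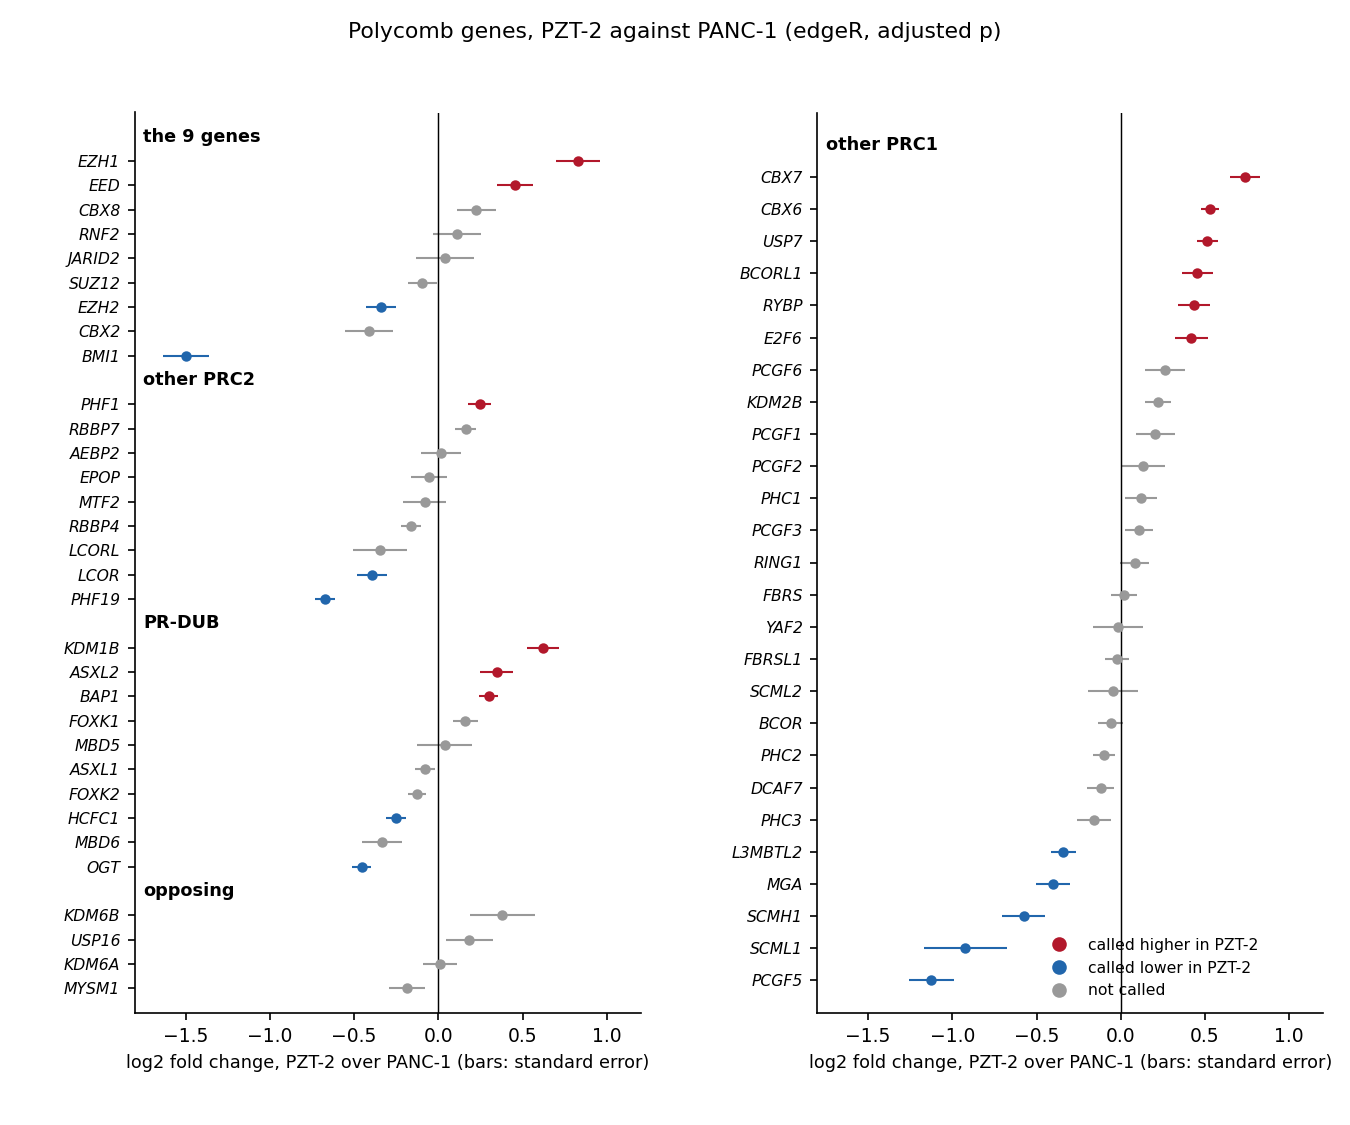
Log2 fold change of PZT-2 over PANC-1 (horizontal axes, bars for the standard error) for the 9 genes and 49 other Polycomb genes, ordered by size within each group and coloured by call. BMI1, at -1.50, and PCGF5, at -1.12, lie farthest to the left, and EZH1, at 0.83, and CBX7, at 0.74, farthest to the right.

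Of the other PRC1 genes 6 were higher and 5 lower out of 26, or 42.3% called, beside 28.4% of all genes tested. PCGF5, a PCGF paralogue of BMI1 found in variant PRC1, fell from 257 and 234 normalized counts to 121 and 104 (log2 fold change -1.12, edgeR adjusted p = 0.00212). The remaining paralogues PCGF1, PCGF2, PCGF3 and PCGF6 had log2 fold changes of 0.21, 0.13, 0.11 and 0.26 and were not called, although PCGF6 passed without PANC-1 replicate 2 (adjusted p = 0.0374). In TPM, BMI1 made up 11.9% ± 0.527 of the PCGF transcripts in PANC-1 and 4.57% ± 0.77 in PZT-2, and PCGF5 19.0% ± 2.24 and 9.95% ± 0.724 (SD, n = 2). With the TPM of COMMD3-BMI1 added to BMI1, its share was 16.5% in PANC-1 and 12.5% in PZT-2. The summed TPM of the PCGF genes was 105 and 114 in PANC-1 and 108 and 102 in PZT-2, which overlap.

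Of the CBX proteins, CBX7 rose from 286 and 305 normalized counts to 506 and 481 (log2 fold change 0.74, edgeR adjusted p = 0.00218), and CBX6 from 2994 and 2906 to 4272 and 4234 (0.53, adjusted p = 0.00113). RING1, at 47.7 to 56.4 TPM, exceeded RNF2, at 7.42 to 9.87 TPM, in every library and was not called (log2 fold change 0.08, adjusted p = 0.519). The shares of RNF2 among the RING transcripts overlapped between the cell lines. The summed TPM of the RING genes was 59.2 and 56.0 in PANC-1 and 66.3 and 61.0 in PZT-2, which do not overlap. TPM carries no TMM correction, and in normalized counts both genes overlapped between the cell lines. RING1 had 670 and 597 normalized counts in PANC-1 and 689 and 652 in PZT-2, so a larger RING pool in PZT-2 is not shown.

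**Figure D4:**
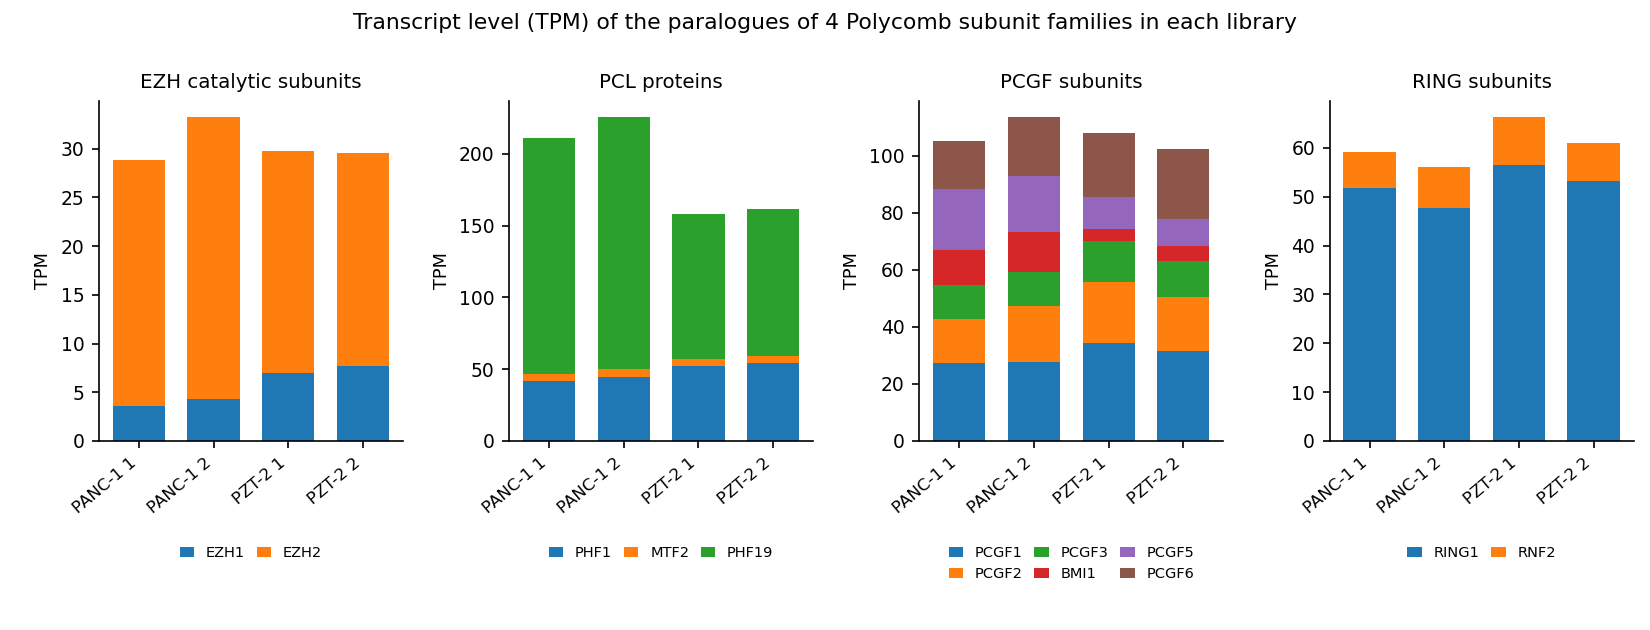
TPM (vertical axes) of the EZH, PCL, PCGF and RING paralogues, stacked for each library. The EZH and PCGF stacks overlap in height between the cell lines while EZH1 widens and BMI1 and PCGF5 narrow in PZT-2, and RING1 is the larger part of the RING stack in every library. The PCL stack is lower and the RING stack higher in both PZT-2 libraries than in either PANC-1 library. In normalized counts, RING1 and RNF2 each overlapped between the cell lines.

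Partners of PRC1 called higher had edgeR adjusted p values between 0.00238 and 0.0225. They included USP7, a deubiquitinase (log2 fold change 0.51), BCORL1, a corepressor (0.45), and RYBP, which binds ubiquitinated H2A (0.43). The last of these partners was E2F6, a transcriptional repressor that is part of variant PRC1 (0.42). Those called lower were SCML1 (-0.92), SCMH1 (-0.58), MGA (-0.40) and L3MBTL2 (-0.34), with adjusted p values between 0.0179 and 0.0333. Of the deubiquitinase complex PR-DUB, which removes the PRC1 mark, 3 genes were higher and 2 lower out of 10. These were 50% of its genes tested, beside 28.4% of all genes tested. KDM1B, a histone demethylase, was higher (0.62, adjusted p = 0.00469), as were ASXL2 (0.35, adjusted p = 0.0391) and BAP1, the catalytic subunit (0.30, adjusted p = 0.0111). OGT, a glycosyltransferase, was lower (-0.46, adjusted p = 0.00212), as was its substrate HCFC1 (-0.25, adjusted p = 0.0208). None of the 4 opposing enzymes KDM6A, KDM6B, USP16 and MYSM1 was called by edgeR or DESeq2, and with either tool 0 had an unadjusted p under 0.05. Of these 19 calls, 7 (PHF19, PCGF5, CBX6, CBX7, USP7, OGT and KDM1B) held with each library left out in turn, and 12 were lost without at least 1 library, 10 when PZT-2 replicate 2 was dropped, 9 for PZT-2 replicate 1, 2 for PANC-1 replicate 1 and 1 for PANC-1 replicate 2.

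The neighbourhoods of these genes differed. Within 2 Mb, the median log2 fold change of the neighbours had the sign of the gene for 12 of the 19 called genes and the opposite sign for 7. The same share was not computed over all called genes, so these counts have no background to be read against. CBX6 and CBX7 lie close together on chromosome 22 with largely the same neighbours, so they are not separate cases. The median log2 fold change was 0.43 over 812 genes of chromosome 3, which carries RYBP and BAP1, and -0.29 over 459 genes of chromosome X, which carries OGT, HCFC1 and SCML1, all called lower, and BCORL1, called higher. Within 2 Mb the median was 0.39 around BAP1 (48 neighbours), 0.47 around RYBP (4) and 0.55 around ASXL2 (57). Around OGT the median was -0.47 (21), around HCFC1 -0.52 (58) and around SCML1 -0.078 (16). It had the opposite sign to the gene around BCORL1 (-0.092) and MGA (0.18, with 22 neighbours called higher and 1 lower). The same held around PHF1 (-0.089), SCMH1 (0.099), USP7 (-0.043), L3MBTL2 (0.061) and KDM1B (-0.046). Around the called members it was 0.06 for EZH1 (90 neighbours), 0.06 for BMI1 (12), 0.09 for EED (11) and -0.18 for EZH2 (23). The neighbours of BMI1 include COMMD3-BMI1, which shares its reads. Around COMMD3-BMI1, with BMI1 among the neighbours instead, the median was -0.038. The part of the neighbourhood in the values of these genes was not tested.

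Genes known as targets of Polycomb repression were counted in a list of 26, of which 15 had a value. In this list 2 were called higher and 5 lower, with a median log2 fold change of -0.29. The called genes were 46.7% of the 15, beside 28.4% of all genes tested. SFRP1, a WNT antagonist, rose from 942 and 1078 normalized counts to 1980.0 and 2097 (log2 fold change 1.01, edgeR adjusted p = 0.000606), and FBXO32, a ubiquitin ligase subunit, from 403 and 359.7 to 529 and 566 (0.53, adjusted p = 0.00847). DAB2IP, a RAS GTPase activating protein, fell from 357 and 343 to 152 and 148 (-1.22, adjusted p = 0.000704), and PAX2, a developmental transcription factor, from 482 and 558 to 310.0 and 304 (-0.76, adjusted p = 0.00313). CDH1, GATA6 and WNT5A were also called lower but had fewer than 100 normalized counts on average over the 4 libraries, and are named after their values were seen. Their log2 fold changes of -3.79, -4.00 and -2.08 were the largest in the list and rest on low counts in PZT-2. CDH1 had 116 and 148 normalized counts in PANC-1 and 0 and 18.8 in PZT-2. CDKN2A and CDKN2B, which encode the cell cycle inhibitors that BMI1 is known to repress, had no value. Their expression therefore cannot be read from these counts. The study reports p16, a product of CDKN2A, as raised in both of its knockdown clones by western blot and RT-qPCR. It also names CDKN2A among the genes lowered by RT-qPCR.

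EZH2 is known to follow proliferation, and a list of 18 proliferation genes is given beside it. In this list 3 genes were called higher and 4 lower, or 38.9% called, beside 28.4% of all genes tested. TOP2A (log2 fold change -0.73), CCNB1 (-0.49), MCM7 (-0.31) and MCM5 (-0.28) were lower, and MCM2, MCM4 and TYMS (each 0.33) were higher, with edgeR adjusted p values between 0.0016 and 0.0249. The median of the list was -0.07. Its part in the EZH2 difference was not tested.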

How the data were processed

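mRNA libraries of PANC-1 (n = 2) and PZT-2 (n = 2) were analysed. Libraries of a scrambled hairpin control named in the study were not analysed here. Reads were trimmed by the authors (Trim Galore 0.4.1) and assigned to RefSeq transcripts (kallisto 0.43.0, with export through sleuth 0.29.0). The submitters' processing notes name hg19. The deposited estimated counts carry 1 scaling factor for each library (0.935 to 1.16), which was recovered from repeated low values and undone. The sleuth columns of the authors' own comparison (effects, p-values and q-values) and the deposited TPM were not used, and TPM was recomputed from recovered counts and the effective lengths as deposited. Counts were summed per gene and rounded. Of 31077 transcripts, 27049 took the symbol of the authors' table, 3925 matched a RefSeq accession (GRCh38.p14), and 104 (0.0468% of counts) were used for no gene, among them 1 of EED that matched by accession alone.

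Genes reaching 5 counts in 2 or more libraries were tested with edgeR 4.0.16 (TMM, quasi-likelihood, R 4.3.3), adjusted by Benjamini-Hochberg. Each standard error was derived from the test, as the size of the log2 fold change over the square root of the quasi-likelihood F statistic. The fits were run on simulated counts and checked for the direction and median error of changes of 2-fold or more. Smaller changes, such as those of EED and EZH2, were not simulated, and no limit was set on false calls. Alternatives used DESeq2 1.42.0, limma 3.58.1 on log2(TPM + 1) or log2(TPM + 0.1), other filters, scalings and transcript sums, the replicate number as a block and each library left out. Total depths of 12861486 to 15717578 counts limit precision by counting error only.

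The 9 genes and the lists were chosen with earlier results of these data known. Named genes are the 9, the other Polycomb genes called or direct paralogues (RING1, PCGF1, PCGF2, PCGF3, PCGF5, PCGF6, CBX6, CBX7), H2AFZ and H2AFV, and called genes of the target and proliferation lists with a mean of at least 100 normalized counts, at most 8 a list. COMMD3, COMMD3-BMI1 and SUZ12P1 were added after the values were seen. A withheld item is not reported here.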

Additional observations from a re-analysis of the deposited data

How the results depend on the processing

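With the most abundant transcript alone, 1117 genes were higher and 1006 lower, among the 9 genes 0 and 1 and among other Polycomb genes 4 and 3. With a further 2-fold minimum there were 442 and 394, 0 and 1, and 0 and 1. Leaving out 1 library at a time gave 1086 to 2445 higher and 933 to 2218 lower, 1 to 2 and 1 to 3 of the 9 genes, and 5 to 12 and 3 to 10 of the other Polycomb genes (the lone library of a group is then assumed to vary like the others). The counts over all genes moved by over 1.5 times for both PZT-2 libraries, to 1286 and 1173 without replicate 1 and to 1086 and 933 without replicate 2. EZH2 lost its call, leaving 1 of the 9 lower, with DESeq2, limma-trend at either pseudocount and the block. Limma-trend called 5 (pseudocount 1) and 4 (0.1) of the other Polycomb genes lower. DESeq2 called 2 of the 17 transcripts against 0, and 14.8% of all transcripts against 0.148%. The replicate numbers did not pair the libraries: the deviations of same-numbered libraries correlated at -0.035 over 10052 genes. With the replicate block 1980 genes were higher and 1763 lower, 2 and 1 of the 9, and EZH2 (adjusted p = 0.0524), PHF1 (0.0644) and ASXL2 (0.066) lost their calls. Adding COMMD3-BMI1, chosen after seeing the data, moved the BMI1 share of PCGF transcripts to 16.5% and 12.5%. No called gene among the 9, the other Polycomb genes, the targeted genes and the target and proliferation genes named by the rule changed direction; COMMD3-BMI1, the keratins, COL1A1, CDH1, GATA6 and WNT5A were not compared across the alternatives. Uncalled values near 0 did: JARID2 reached -0.0050 with length-scaled counts and -0.77 with its most abundant transcript, and without 1 library the ranges were -0.14 to 0.20 for JARID2 (with -0.029 between), -0.20 to 0.0077 for SUZ12, -0.059 to 0.27 for RNF2, -0.0062 to 0.16 for RING1 and -0.0092 to 0.29 for PCGF2. The cause was not tested.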
